A study of Homo sapiens with 6 samples.

Results

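The RAB genes encode small GTPases of membrane traffic, and 61 of the 56638 gene symbols in the count files carried a RAB name, that is RAB, a number and at most one letter from A to D. Among these, RAB1C is annotated as a processed pseudogene and was kept with the ER and Golgi members. RNA was sequenced from human colorectal cancer cells transfected with a nonspecific control siRNA (3 libraries) or with siRNA against GLCC1 (3 libraries), a long noncoding RNA that the sample labels call lncRNA-AF339830. No other treatment separated the groups, and all 6 came from 1 cell line, SW480 by the labels but DLD-1 by the methods of the study. Libraries were grouped by their titles, which end in siRNA1, siRNA2 or siRNA3 in each group. That number is called the replicate here. The study also used GLCC1 siRNAs named siRNA1 and siRNA2, and the labels do not say whether the number marks a replicate or a different siRNA. The library name of each control sample, however, carries AF123 and that of each GLCC1 siRNA sample carries NC, so if the library names were right and the titles wrong, every sign below would turn. GLCC1 itself has no row among the counted symbols. FARP1, the gene whose span holds the GLCC1 locus, was at 109, 110.01 and 113 CPM (counts scaled to a common library size) in the libraries titled control and at 63.2, 65.6 and 65.4 CPM in those titled GLCC1 siRNA, and reads of FARP1 are not a measure of GLCC1. The question asked of the RAB genes was which of them differed between the siRNAs. RAB18 comes first because the study lists real-time PCR primers for it, though its text names no RAB18 result.

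A RAB protein is bound to GTP in its active state and to GDP in its inactive state. Exchange factors (GEFs) load GTP, GTPase-activating proteins (GAPs) end the active state, and a prenyl tail that a geranylgeranyl transferase attaches anchors the protein in the membrane until GDI extracts it. Each membrane of the secretory and endocytic routes carries its own RABs, which recruit effectors such as tethers, motors and coats. RAB18 works at the endoplasmic reticulum (ER) and on lipid droplets, the stores of neutral lipid. In gut epithelium, RAB8, RAB11, RAB17 and RAB25 are known for traffic to the apical surface.

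Between 11948790 and 19042516 read pairs per library fell on genes, of which the RAB genes took between 0.249% and 0.262%. Levels are CPM scaled by TMM, a normalization that makes most genes level between libraries. A gene was called when edgeR's quasi-likelihood test gave an adjusted p under 0.05 over the 23074 genes tested, and standard errors (SE) are on the log2 scale. Nothing in the labels says that libraries of a group came from separate cultures. The study states in general that its experiments used biological replicates collected apart from each other, without naming the sequencing. The p-values measure the spread between these libraries, which may be technical. GLCC1 siRNA replicate 2, whose title ends in siRNA2, stood apart, and whether it carried another siRNA cannot be told from the labels. It was the smallest library, 14.2% of its read pairs fell on no gene (11.2% to 12.7% in the others), and its counts differed from those of the other GLCC1 siRNA libraries with a chi-square per degree of freedom of 18.1 and 19.0, against 1.93 to 4.16 for the other pairs within a group. All 8 epithelial markers checked averaged 1 CPM or more, and 6 of them (75%) were called lower, beside 24.8% of all genes at that level. Keratin KRT8 was at 3409 to 3767 CPM in the control libraries and 1005 to 1301 CPM in the others. CDX2 and VIL1 were not called, and VIL1 was higher in every GLCC1 siRNA library (225 to 256 CPM, against 198 to 210 CPM in the controls). Among markers of other cells, 1 of 4 leukocyte, 3 of 4 fibroblast and 2 of 3 endothelial genes had no count in any library, and COL1A1 had the highest level, at 6.68 to 15.0 CPM.

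Of the 61 RAB genes, 55 were tested. RAB6C, RAB38 and RAB39A had no count in any library, and RAB3C, RAB33A and RAB39B had too few. RAB29 stands in the files under its older symbol RAB7L1 and so fell outside the rule, and RAB7B is not among the counted symbols. With GLCC1 siRNA, 18 RAB genes were called lower (32.7% of those tested) and 7 higher (12.7%), beside 16.8% and 14.9% of all genes tested (31.6% in either direction). Since most RAB genes are well expressed, the share among genes averaging 1 CPM or more is the nearer background. There 45.1% of genes were called, 24.8% lower and 20.3% higher, and of the 48 RAB genes above that level 16 (33.3%) were lower and 7 (14.6%) higher. The median log2 fold change was -0.14 over the RAB genes tested and 0.03 over all genes. In 23 of the 55 RAB genes tested every GLCC1 siRNA library was below every control library, and in 10 every one was above. The shares over all genes tested were 24.1% and 22.2%, and those over genes averaging 1 CPM or more were not computed. The number called lower was 8 without control replicate 2 and 22 without GLCC1 siRNA replicate 2. The number called higher was 4 without control replicate 2 and also 4 without control replicate 3. With library totals as the only scaling the counts were 13 lower and 9 higher, and the median log2 fold change moved to -0.02 for the RAB genes and to 0.15 for all genes.

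**Figure D1:**
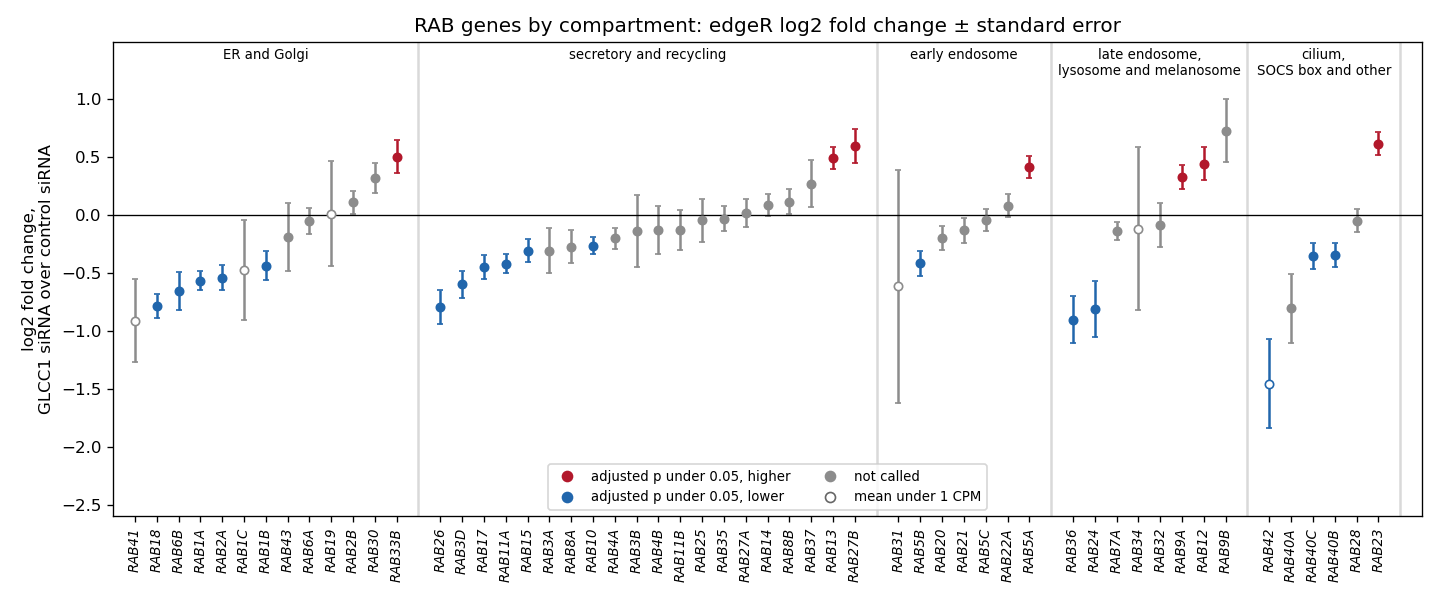
Log2 fold change (GLCC1 siRNA over control siRNA) with its standard error for 54 of the 55 RAB genes tested, grouped by compartment and ordered by value, RAB44 being left out because it had no count with GLCC1 siRNA. Filled points average 1 CPM or more, and colour marks the call; RAB18 has -0.79 in the ER and Golgi group and RAB23 has 0.61 in the last group.

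RAB18 was lower with GLCC1 siRNA. The gene lies at chr10:27793103-27832136 on the plus strand (hg19), and its canonical transcript of 7 exons has 4875 nt, of which 4188 nt are 3′ UTR. RAB18 stood at 106, 102 and 104 CPM in the control libraries and at 55.0, 70.0 and 56.2 CPM in the GLCC1 siRNA libraries. The groups did not overlap, and the highest GLCC1 siRNA value belonged to replicate 2. The means were 104 ± 2.15 and 60.4 ± 8.31 CPM (SD, n = 3 each), which is 42.0% lower (log2 fold change -0.79, SE 0.10, edgeR adjusted p = 5.41e-05). Without replicate 2 of the GLCC1 siRNA group the log2 fold change was -0.90, and with library totals it was -0.66. In the 13 alternatives it stayed between -0.90 and -0.66 with an adjusted p of at most 0.000877. Per kilobase of transcript RAB18 ranked 18 among the RAB genes, at 16.9 CPM per kb, below RAB7A at 135, RAB10 at 78.6 and RAB1A at 62.0 CPM per kb, the most abundant by that scale. Lower counts in bulk RNA can come from fewer cells that express a gene or from less RNA per cell, and these cannot be told apart.

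The genes listed as partners of RAB18 went both ways. Of 13, 3 were called higher and 4 lower, which is 23.1% and 30.8%, near the 20.3% and 24.8% of all genes averaging 1 CPM or more. The RAB3GAP1 and RAB3GAP2 subunits form the exchange factor of RAB18. RAB3GAP1 had 70.6, 67.4 and 66.9 CPM in the control libraries and 63.5, 65.8 and 62.1 CPM with GLCC1 siRNA (log2 fold change -0.10, adjusted p = 0.405). RAB3GAP2 was at 88.0, 85.9 and 87.6 CPM against 80.8, 97.2 and 78.7 CPM (log2 fold change -0.03, adjusted p = 0.849), and neither was called. TBC1D20, the GAP of RAB18, was at 81.9, 84.3 and 85.2 CPM in the controls and at 116, 95.7 and 113 CPM with GLCC1 siRNA, so that the groups did not overlap (log2 fold change 0.37, SE 0.09, adjusted p = 0.00718). Mutations in these 3 genes and in RAB18 are known to cause the same inherited disorder, Warburg Micro syndrome.

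The NRZ tether and its SNAREs, which RAB18 binds where the ER meets a lipid droplet, held the largest differences of the list. SEC22B, an ER SNARE, was at 69.3, 69.9 and 71.6 CPM in the control libraries and at 22.7, 25.9 and 22.8 CPM in the GLCC1 siRNA libraries (66.2% lower, log2 fold change -1.56, SE 0.09, adjusted p = 9.21e-08). The SNARE gene BNIP1 was at 11.7, 12.4 and 13.2 CPM against 4.33, 2.94 and 5.03 CPM (66.4% lower, log2 fold change -1.57, SE 0.17, adjusted p = 1.12e-05). For both, the highest GLCC1 siRNA library was below the lowest control by a wide margin, whereas the other SNAREs of the set, STX18 and USE1, were not called, with log2 fold changes of -0.25 (adjusted p = 0.0549) and 0.04 (adjusted p = 0.859). STX18 was called without GLCC1 siRNA replicate 2 (log2 fold change -0.27, adjusted p = 0.00215).

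Of the NRZ subunits, ZW10 was higher, at 39.1, 43.97 and 38.1 CPM with GLCC1 siRNA against 18.2, 17.4 and 22.1 CPM in the controls (log2 fold change 1.07, SE 0.11, adjusted p = 1.18e-05). NBAS was lower, at 62.5, 68.4 and 65.6 CPM against 84.6, 85.6 and 87.5 CPM (log2 fold change -0.39, adjusted p = 0.00257). These subunits differed in opposite directions, each without overlap. RINT1, the other subunit, was at 24.7, 25.2 and 24.8 CPM against 29.8, 28.9 and 30.6 CPM and narrowly missed the threshold (log2 fold change -0.26, adjusted p = 0.0507). Without GLCC1 siRNA replicate 2 it was called (log2 fold change -0.26, adjusted p = 0.00592).

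On the lipid droplet, PLIN2, a coat protein of the droplet, was at 129.8, 125 and 159.9 CPM with GLCC1 siRNA and at 61.2, 73.9 and 69.6 CPM in the controls (log2 fold change 1.02, SE 0.11, adjusted p = 1.2e-05). The related coat gene PLIN3 overlapped between the groups (log2 fold change -0.17, adjusted p = 0.351). ZFYVE1, whose product DFCP1 binds RAB18 at droplets, was at 20.1, 18.3 and 22.3 CPM against 24.5, 25.5 and 25.1 CPM (log2 fold change -0.30, adjusted p = 0.0413). The call of ZFYVE1 was lost without control replicate 1, 2 or 3 (adjusted p = 0.0983, 0.13 and 0.127), without GLCC1 siRNA replicate 1 (0.107), with library totals (0.201) and in DESeq2 (0.0642).

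**Figure D2:**
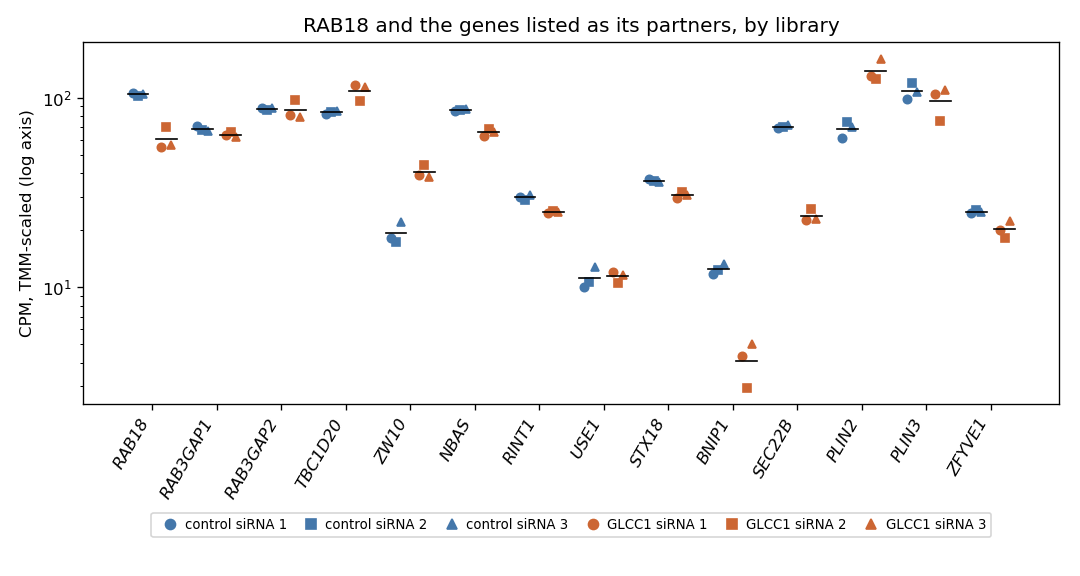
Level in CPM (log axis) of RAB18 and of its 13 listed partners in each of the 3 control siRNA and 3 GLCC1 siRNA libraries, with the group mean as a bar and the replicate number as the marker shape. RAB18, SEC22B, BNIP1, NBAS, RAB3GAP1, RINT1, STX18 and ZFYVE1 lie lower and ZW10, PLIN2 and TBC1D20 higher with GLCC1 siRNA, without overlap between the groups. Of these, RAB3GAP1, RINT1 and STX18 were not called.

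Among the RABs of the ER and Golgi, 5 of 13 tested were called lower (38.5%) and 1 higher (7.69%), with a median log2 fold change of -0.44. Of all genes averaging 1 CPM or more, a level that 10 of these RABs reached, 24.8% were lower and 20.3% higher. RAB1A, which controls ER to Golgi transport, was at 187, 180.3 and 177 CPM in the control libraries and at 118, 126 and 123 CPM with GLCC1 siRNA (32.5% lower, log2 fold change -0.57, SE 0.08, adjusted p = 9.21e-05). RAB2A, which acts between the ER and the Golgi, was at 88.0, 87.0 and 90.2 CPM against 55.0, 71.7 and 55.8 CPM (log2 fold change -0.54, SE 0.11, adjusted p = 0.00144). Both were lower in each GLCC1 siRNA library, RAB1A by like amounts in all of them and RAB2A least in replicate 2, as for RAB18. RAB1B, the paralogue of RAB1A, was at 43.3, 46.2 and 41.4 CPM against 37.3, 25.1 and 33.8 CPM (log2 fold change -0.44, adjusted p = 0.0178). Its call was lost without control replicate 1 (adjusted p = 0.0546) or 2 (0.087) and with library totals (0.0689). RAB6B, the less abundant of the RAB6 genes of Golgi traffic, was at 8.98, 12.5 and 10.5 CPM against 8.08, 5.49 and 6.54 CPM (log2 fold change -0.66, adjusted p = 0.00835; without control replicate 2 adjusted p = 0.0627). RAB6A was far more abundant, at 127 to 135 CPM in the controls and at 108, 151 and 117 CPM with GLCC1 siRNA (log2 fold change -0.05, adjusted p = 0.751).

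RAB33B, a Golgi RAB that also binds the autophagy protein ATG16L1, was the one member of this group called higher, at 20.8, 27.8 and 18.8 CPM with GLCC1 siRNA against 16.7, 15.3 and 15.4 CPM (log2 fold change 0.50, SE 0.14, adjusted p = 0.0139). The groups did not overlap, but the call was lost without control replicate 2 (adjusted p = 0.0666) or 3 (0.064). Summed over the 15 ER and Golgi RABs, the level was 613 ± 5.76 CPM in the controls and 473 ± 41.2 CPM with GLCC1 siRNA (SD, n = 3), which is 22.8% lower, or 26.7% lower without GLCC1 siRNA replicate 2. The exact permutation test, two-sided, gave p = 0.1, the smallest that 3 libraries against 3 allow. Most of the difference lay in RAB1A, RAB18 and RAB2A, with means of 181, 104 and 88.4 CPM against 122, 60.4 and 60.8 CPM. The sum was also lower for RABs of secretion and recycling (8.64%) and of late endosomes, lysosomes and melanosomes (6.30%). For cilium, SOCS box and other RABs it was 4.23% lower. The exact permutation test, two-sided, gave p = 0.1 for each of these sums too. The early endosome sum was level (369 and 370 CPM). Over all 61 RAB genes the sum was 10.1% lower (2708 ± 32.4 and 2433 ± 51.6 CPM, exact p = 0.1). As a plain share of the counts, without TMM, the sums of the groups overlapped, with 0.255% to 0.262% in the controls and 0.249% to 0.262% with GLCC1 siRNA.

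Of the 20 RABs of secretion and recycling tested, 6 were called lower (30%) and 2 higher (10%), with a median log2 fold change of -0.14. All 20 averaged 1 CPM or more, a level at which 24.8% of genes were lower and 20.3% higher. RAB11A, the main RAB of recycling endosomes, was at 192, 189 and 191 CPM in the controls and at 137, 152 and 139 CPM with GLCC1 siRNA (log2 fold change -0.42, SE 0.08, adjusted p = 0.00108). RAB17, an epithelial RAB of polarized transport, was at 41.5, 50.3 and 46.2 CPM against 35.3, 30.6 and 34.7 CPM (log2 fold change -0.45, SE 0.10, adjusted p = 0.00414). In both genes the groups did not overlap. RAB3D, a RAB of regulated exocytosis, was at 31.0, 34.1 and 32.9 CPM against 23.7, 17.4 and 23.2 CPM (log2 fold change -0.60, SE 0.12, adjusted p = 0.00169). RAB26, found on secretory granules, was at 11.4, 12.9 and 10.1 CPM against 6.36, 5.80 and 7.55 CPM (42.4% lower, log2 fold change -0.80, SE 0.15, adjusted p = 0.000972). These 4 genes were called in all 13 alternatives.

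RAB10 and RAB15 moved less. RAB10, which carries vesicles from the trans-Golgi to the basolateral membrane, was at 299, 308 and 309.9 CPM in the controls and at 249, 257 and 256 CPM with GLCC1 siRNA, so the groups did not overlap (16.9% lower, log2 fold change -0.27, adjusted p = 0.0127). Its call was lost without control replicate 2 (adjusted p = 0.0612) or 3 (0.0754) and with library totals (log2 fold change -0.14, adjusted p = 0.157). RAB15, an endosomal RAB, was at 72.0, 77.6 and 72.6 CPM against 60.6, 52.8 and 65.7 CPM (log2 fold change -0.31, adjusted p = 0.0263). Its call was lost with library totals (0.152), without any 1 of the control libraries (0.0671, 0.121 and 0.0805) and without GLCC1 siRNA replicate 1 (0.0607).

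RAB13 and RAB27B were the members of this group called higher. RAB13, which works at tight junctions of epithelia, was at 54.7, 54.9 and 63.3 CPM with GLCC1 siRNA against 40.0, 42.9 and 40.3 CPM in the controls (log2 fold change 0.49, SE 0.09, adjusted p = 0.00137). RAB27B, a RAB of exosome and granule release, was at 71.1, 111 and 73.8 CPM against 61.0, 51.8 and 56.4 CPM (log2 fold change 0.60, SE 0.15, adjusted p = 0.0071). No library of a group reached into the other, and replicate 2 stood well above the other GLCC1 siRNA libraries for RAB27B. Without it the log2 fold change of RAB27B was 0.37. RAB13 and RAB27B were called in all 13 alternatives. The epithelial members RAB8A and RAB25 were not called (adjusted p = 0.166 and 0.869).

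Among the 7 early endosome RABs, 1 was called in each direction (14.3%), beside 24.8% lower and 20.3% higher of genes at 1 CPM or more. Both called genes belong to the RAB5 subfamily, which drives fusion of early endosomes. RAB5A was at 90.4, 109 and 90.03 CPM with GLCC1 siRNA against 72.8, 72.1 and 72.1 CPM in the controls (log2 fold change 0.41, SE 0.09, adjusted p = 0.00414). RAB5B was at 19.4, 18.6 and 22.2 CPM against 24.7, 28.6 and 27.3 CPM (log2 fold change -0.42, SE 0.11, adjusted p = 0.0093). The paralogues thus differed in opposite directions, without overlap in either, though the call of RAB5B was lost without control replicate 2 (adjusted p = 0.0591). RAB5C, at 31.6 to 32.3 CPM in the controls and 28.6 to 32.6 CPM with GLCC1 siRNA, was not called (log2 fold change -0.04, adjusted p = 0.757).

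Of the 8 RABs of late endosomes, lysosomes and melanosomes tested, 2 were called lower and 2 higher (25% each). Those shares are near the 24.8% lower and 20.3% higher of all genes averaging 1 CPM or more. RAB36 was at 10.97, 11.1 and 9.82 CPM in the controls and at 6.25, 3.26 and 7.10 CPM with GLCC1 siRNA (46.6% lower, log2 fold change -0.90, SE 0.20, adjusted p = 0.00379). RAB24, which is linked to autophagosomes, was at 3.57, 3.42 and 3.79 CPM against 2.61, 1.19 and 2.12 CPM (log2 fold change -0.81, SE 0.24, adjusted p = 0.0192). Both were lowest in GLCC1 siRNA replicate 2. Without it RAB36 had a log2 fold change of -0.67. The call of RAB24 was lost without control replicate 1, 2 or 3 (adjusted p = 0.0519, 0.051 and 0.0737), and 58.3% of its transcript shares its position and strand with MXD3, which was higher (log2 fold change 0.46). RAB9A, which returns receptors from late endosomes to the trans-Golgi, was at 26.1, 26.1 and 24.1 CPM against 21.7, 18.4 and 20.8 CPM (log2 fold change 0.33, adjusted p = 0.0299). RAB12, a RAB of receptor degradation, was at 22.7, 30.4 and 20.2 CPM against 18.4, 18.7 and 16.5 CPM (log2 fold change 0.44, adjusted p = 0.0291, and 0.27 without GLCC1 siRNA replicate 2). Neither overlapped between the groups, yet both calls were lost without any 1 of the control libraries (adjusted p from 0.0523 to 0.158 for RAB9A and from 0.0693 to 0.13 for RAB12), and that of RAB9A also without GLCC1 siRNA replicate 1 (0.0849). RAB7A, the main RAB of late endosomes and the most abundant RAB per kilobase, was at 303, 319 and 307 CPM in the controls and at 291, 262 and 291 CPM with GLCC1 siRNA and was not called (log2 fold change -0.14, adjusted p = 0.202).

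In the last group, of cilium, SOCS box and other RABs, 4 of 7 were called lower (57.1%) and 1 higher (14.3%). Of all genes averaging 1 CPM or more, 24.8% were lower and 20.3% higher, but 2 of the lower RABs, RAB42 and RAB44, averaged under 1 CPM. RAB23, a ciliary RAB that restrains Hedgehog signalling, was at 32.2, 35.0 and 32.9 CPM with GLCC1 siRNA against 23.9, 21.0 and 20.6 CPM in the controls (log2 fold change 0.61, SE 0.10, adjusted p = 0.000399). The libraries of each group lay close together. Over 58.8% of its length the RAB23 transcript overlaps BAG2 on the other strand, BAG2 was also higher (log2 fold change 0.36), and the strand setting of the counting is not given in the sources used here, so the values of both genes are uncertain. RAB40B and RAB40C, whose SOCS box joins them to ubiquitin ligases, were lower by like amounts (log2 fold changes -0.35 and -0.36, adjusted p = 0.0232 and 0.0267). RAB40B was at 21.3, 21.0 and 19.9 CPM against 17.0, 14.9 and 16.8 CPM, and RAB40C was at 40.4, 44.8 and 42.2 CPM against 36.1, 27.4 and 35.5 CPM. Both calls were lost with library totals (adjusted p = 0.126 and 0.12) and without any 1 of the control libraries (0.0611 to 0.0913 for RAB40B, 0.0545 to 0.118 for RAB40C). Below 1 CPM on average, RAB42 was at 1.03, 1.54 and 1.20 CPM against 0.678, 0.239 and 0.391 CPM (log2 fold change -1.46, adjusted p = 0.0107), a call lost without control replicate 2 (adjusted p = 0.0657). RAB44 had 1, 6 and 3 counts in the controls and none with GLCC1 siRNA (edgeR adjusted p = 0.0358). With the GLCC1 siRNA group set at a floor of 3 counts it was 3.08-fold lower, a value that leaves out the error of the 10 control counts. RAB44 was not called without control replicate 3 (adjusted p = 0.0838) or GLCC1 siRNA replicate 1 (0.0777) or 3 (0.0692), and had too few counts for the test without control replicate 2. RAB42 and RAB44 are given because they were called, although they fall below the level set for naming a gene.

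Of the 25 RAB genes called, 12 were called in all 13 alternatives. The 8 lower ones were RAB1A, RAB2A, RAB3D, RAB11A, RAB17, RAB18, RAB26 and RAB36, and the 4 higher ones were RAB5A, RAB13, RAB23 and RAB27B.

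GLCC1 siRNA replicate 2 departed from the other libraries of its group in step with the base composition of the transcript. Over the 48 RAB genes averaging 1 CPM or more, its log2 difference from the mean of replicates 1 and 3 ran from -1.01 for RAB36 to 0.62 for RAB27B. The difference was 0.33 for RAB18 (36.7% GC) and 0.42 for RAB6A (40.8% GC), and it was -0.82 for RAB11B (63.1% GC) and -0.65 for RAB8A (52.2% GC). RAB4A (39.5% GC), at -0.08, shows the scatter around that trend. RAB4A, RAB6A, RAB8A and RAB11B were picked as examples after their values were seen. Pearson's r across these genes was -0.83, and across 12349 genes -0.67, where the control libraries gave between -0.29 and 0.37 in the same measure; genes of a library share its depth and preparation and are not independent. With a GC curve fitted for each library, an alternative chosen after seeing the data, 21 RAB genes were called lower and 8 higher, and RAB18 had a log2 fold change of -0.85.

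**Figure D3:**
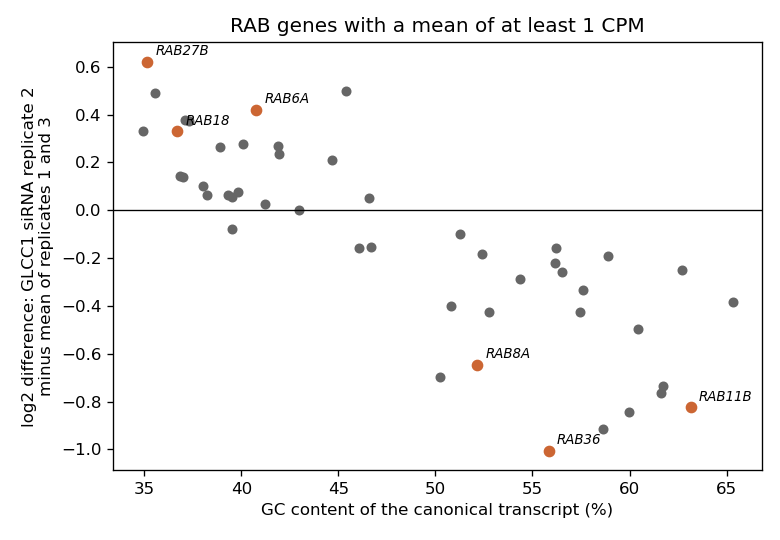
Log2 difference between GLCC1 siRNA replicate 2 and the mean of replicates 1 and 3 (vertical axis) against the GC content of the canonical transcript in percent (horizontal axis) for 48 RAB genes. Named genes are in orange; RAB27B at 35.1% GC has 0.62 and RAB11B at 63.1% GC has -0.82.

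The 3′ UTRs of the RAB transcripts were read for 2 words of 7 letters, because both stand in the stretch of GLCC1 that siRNA 1 of the study targets. ACCTTGA pairs with bases 2 to 8 of the antisense strand of that siRNA and CCTTGAA with bases 1 to 7, and ACCTTGAA holds both words. Which of the GLCC1 siRNAs of the study was sequenced is not settled by the labels, the siRNA letters were read from a page image, and the 8 letters ACCTTGAA occur 1 time in the GLCC1 sequence of the study's plasmid list. The word was searched on the transcript strand in the canonical transcripts. The sites below are those of the called RAB genes, apart from that of RAB2A, which is not printed. The word is in capitals, the letters run in transcript direction and positions are of hg19, and the last 2 sites are of genes called higher, the others of genes called lower. The full ACCTTGAA stands in RAB6B and in RAB42, which averages under 1 CPM.
RAB6B, chr3:133546553-133546582, minus strand: gcagaaccaccACCTTGAAagatccatgtt
RAB6B, chr3:133546898-133546926, minus strand: tccctgaaaagCCTTGAAgggggttgagg
RAB10, chr2:26358354-26358382, plus strand: actcattttcgCCTTGAAtatgtaaatgg
RAB11A, chr15:66181276-66181304, plus strand: aatgaaatagtACCTTGAgtttaaataga
RAB11A, chr15:66182356-66182384, plus strand: tttgctacttgACCTTGAttttcagttat
RAB11A, chr15:66182682-66182710, plus strand: accgtgcctggCCTTGAAtttttttttaa
RAB36, chr22:23504559-23504587, plus strand: cactctgcagcCCTTGAAcatggcactgc
RAB36, chr22:23507229-23507257, plus strand: cagcacttgatACCTTGAgtgtgattggt
RAB15, chr14:65413149-65413177, minus strand: tggagttgcttCCTTGAAgatgggactcc
RAB40B, chr17:80614488-80614516, minus strand: caaggctgaatCCTTGAActgttgtcgcc
RAB42, chr1:28921182-28921211, plus strand: taaaagatcccACCTTGAAgggaggtggtg
RAB27B, chr18:52557628-52557656, plus strand: aggaaaactagCCTTGAAttttttttaga
RAB33B, chr4:140396302-140396330, plus strand: tatcgaaattaACCTTGAtttataactat

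Of the 48 RAB genes averaging 1 CPM or more, 14 (29.2%) carried a word, beside 21.2% of 11340 genes with a 3′ UTR of at least 50 nt at that level. Of those 14, 7 (50%) were called lower and 2 higher, and of the other 34, 9 (26.5%) were called lower and 5 higher. Over all genes 38.4% of those with a word and 24.7% of those without were called lower. Besides RAB6B, RAB10, RAB11A and RAB36, the lower genes with a word were RAB2A, RAB15 and RAB40B. RAB18, RAB1A and RAB26 carried none, and neither did RAB5A, RAB13 or RAB23. Of the RAB18 partners, SEC22B, BNIP1 and STX18 each carried CCTTGAA 1 time. Long 3′ UTRs have more room for any word, and the median length was 3076.5 nt in the RAB genes with a word and 1495.5 nt in those without. The part of the words in any difference was not tested.

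The percent of a subfamily's counts that each paralogue took was compared within libraries, where the scaling between libraries cancels. In 12 subfamilies 20 shares could be counted, and 7 of them (35%, in either direction) did not overlap between the groups. The levels of single genes did not overlap in 24.1% of all genes in the lower direction and in 22.2% in the higher. Those percents together exceed 35%, so shares did not separate more often than levels. Each of the 7 shares had p = 0.1 in the exact permutation test, two-sided, the smallest the design allows (adjusted p = 0.286 over the 20 shares). RAB2A took 77.2%, 79.1% and 77.2% of the RAB2 counts in the controls and 67.0%, 72.6% and 67.3% with GLCC1 siRNA, while the level of RAB2B was 23.0 to 26.6 CPM and 27.1 to 27.2 CPM. RAB5A took 56.3%, 54.5% and 54.7% of the RAB5 counts in the controls and 63.4%, 69.7% and 62.7% with GLCC1 siRNA. The share of RAB5B went from 20.5% ± 1.25 to 13.7% ± 1.77 and that of RAB5C from 24.3% ± 0.353 to 21.0% ± 2.37 (SD, n = 3).

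RAB27A took 16.7%, 17.9% and 19.3% of the RAB27 counts in the controls and 15.2%, 10.3% and 13.8% with GLCC1 siRNA, at a like level of RAB27A in both groups (12.3 ± 1.10 and 12.4 ± 0.556 CPM). The shares of RAB9A (95.4% ± 0.460 and 94.0% ± 0.446) and RAB25 (1.29% ± 0.186 and 1.55% ± 0.142) moved by little. In the RAB1, RAB3, RAB4, RAB6, RAB8, RAB22 and RAB40 subfamilies the groups overlapped. For RAB8A 1 library stood apart, with 38.8%, 24.6% and 39.4% of the RAB8 counts in the GLCC1 siRNA group and 39.2% to 42.1% in the controls. Without that library, GLCC1 siRNA replicate 2, 12 of the 20 shares did not overlap, a count that leaving out a library can raise but not lower, and with counts divided by transcript length 6 did not.

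**Figure D4:**
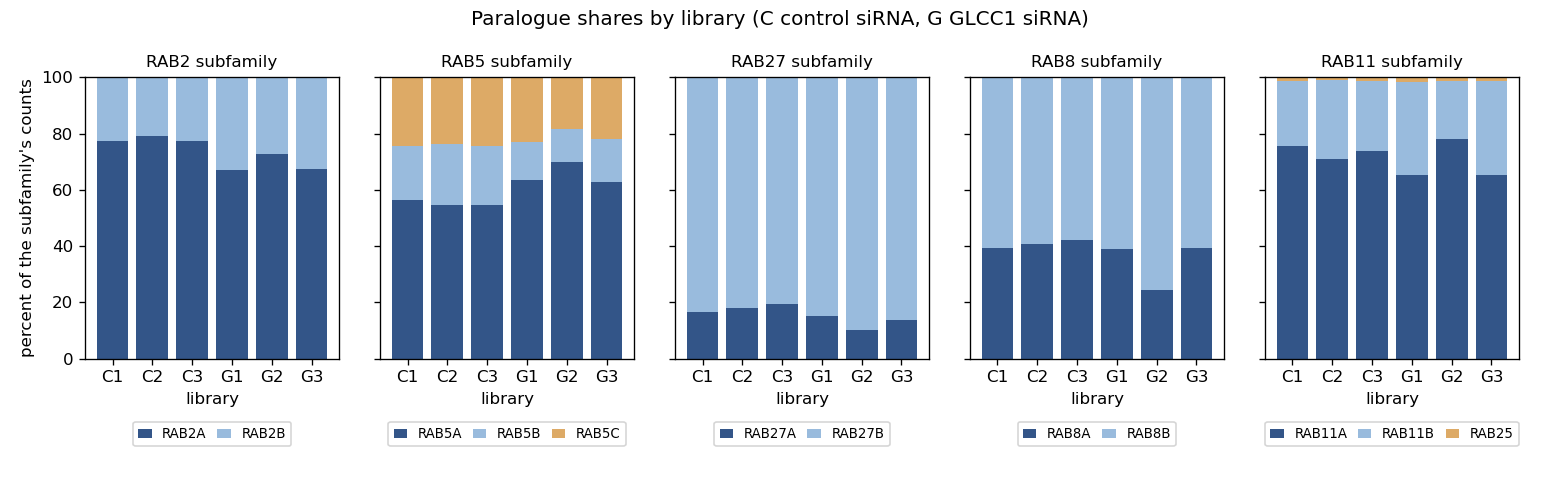
Percent of each subfamily's counts taken by each paralogue (stacked bars, 0 to 100%) in the control siRNA libraries C1 to C3 and the GLCC1 siRNA libraries G1 to G3. The RAB2A share is lower and the RAB5A share higher in all 3 GLCC1 siRNA libraries, while the RAB8 and RAB11 panels show library G2 apart from G1 and G3.

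Genes that act on RAB proteins were counted from lists of their roles. Of 111 regulators and effectors tested, 20 (18%) were called higher and 29 (26.1%) lower, beside 20.3% and 24.8% of all genes averaging 1 CPM or more. The counts moved with the scaling, to 35 higher and 18 lower with library totals. They also moved with single libraries, to 34 higher and 40 lower without GLCC1 siRNA replicate 2 and to 19 lower without control replicate 2.

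In the prenylation and membrane cycle, 3 of 8 genes were called higher (37.5%) and 4 lower (50%), beside 20.3% and 24.8% of genes at 1 CPM or more. CHML, which encodes the RAB escort protein REP2, was at 96.9, 139.8 and 98.4 CPM with GLCC1 siRNA against 67.7, 58.7 and 61.6 CPM (log2 fold change 0.83, SE 0.13, adjusted p = 0.00028). CHM, for the other escort protein REP1, was at 25.3, 28.6 and 21.4 CPM against 32.8, 34.4 and 30.8 CPM (log2 fold change -0.39, adjusted p = 0.0201). Neither overlapped between the groups, so the escort paralogues differed in opposite directions. GDI2, which extracts RABs from membranes, was higher (log2 fold change 0.33, adjusted p = 0.00902). RABGGTA, the alpha subunit of the transferase, had a log2 fold change of -0.44 (adjusted p = 0.0196), RABIF, a chaperone of nucleotide-free RABs, one of -0.39 (adjusted p = 0.0115), and RABAC1, a RAB acceptor of Golgi membranes, one of -0.49 (adjusted p = 0.0333). Calls lost without single libraries were those of CHM (control 1 or 2 or GLCC1 siRNA 3, adjusted p = 0.069, 0.0982 and 0.0919), RABGGTA (control 2 or 3, 0.0783 and 0.0866), GDI2 (control 2, 0.066) and RABAC1 (any control, 0.0676 to 0.11), and without GLCC1 siRNA replicate 2 RABAC1 had a log2 fold change of -0.28. With library totals the calls of CHM, RABGGTA, RABIF and RABAC1 were lost (adjusted p = 0.105, 0.071, 0.0689 and 0.0868).

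Among the 34 GEFs, 4 were called higher (11.8%) and 8 lower (23.5%), both below the 20.3% and 24.8% of genes at 1 CPM or more. DENND5A, a DENN domain protein that binds RAB6, was at 113, 105 and 111 CPM with GLCC1 siRNA against 55.5, 56.8 and 55.8 CPM (log2 fold change 0.97, SE 0.08, adjusted p = 1.55e-06). RGP1, a subunit of the exchange factor of RAB6A, was at 42.9, 40.8 and 46.9 CPM against 70.3, 80.2 and 76.7 CPM (log2 fold change -0.80, SE 0.09, adjusted p = 2.76e-05). In both, the groups lay far apart. DENND6A, an exchange factor of RAB14, was higher (log2 fold change 0.70) and its paralogue DENND6B lower (-0.64, and not called without control replicate 2, adjusted p = 0.0562), as were SBF2 (-0.58) and DENND1C (-0.47), which acts on RAB35.

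Of the 28 GAPs tested, 7 were called higher (25%) and 9 lower (32.1%), beside 20.3% and 24.8% of genes at 1 CPM or more. TBC1D13, which acts on RAB35, was at 16.0, 11.8 and 13.7 CPM with GLCC1 siRNA against 31.1, 34.2 and 33.5 CPM (57.7% lower, log2 fold change -1.24, SE 0.12, adjusted p = 4.39e-06). TBC1D1, a GAP of glucose transporter traffic, was at 40.9, 38.7 and 40.7 CPM against 82.3, 81.0 and 82.0 CPM (log2 fold change -1.03, SE 0.08, adjusted p = 1.15e-06). TBC1D25, a GAP of RAB33B, was also lower (log2 fold change -0.80). The larger differences in the other direction were those of TBC1D10C (log2 fold change 1.17), EVI5L (0.90) and TBC1D10B (0.81), each without overlap between the groups.

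Of the 41 effectors tested, 6 were called higher (14.6%) and 8 lower (19.5%), both below the 20.3% and 24.8% of genes at 1 CPM or more. SYTL5, a RAB27 effector of vesicle docking, was at 19.96, 26.3 and 19.7 CPM with GLCC1 siRNA against 3.98, 4.02 and 5.78 CPM in the controls (log2 fold change 2.25, SE 0.17, adjusted p = 6.04e-07). OPTN, an effector of RAB8 and a receptor of selective autophagy, was at 39.5, 44.3 and 44.2 CPM against 85.8, 90.1 and 81.8 CPM (log2 fold change -1.01, SE 0.09, adjusted p = 2.52e-06). These had the largest log2 fold changes among the called effectors. RABEPK, an effector of RAB9, and EXPH5, another effector of RAB27, were lower (log2 fold changes -0.79 and -0.60), whereas BICD1, the adaptor that links RAB6 to dynein, and RABEP1, an effector of RAB5, were higher (0.60 and 0.52).

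**Figure D5:**
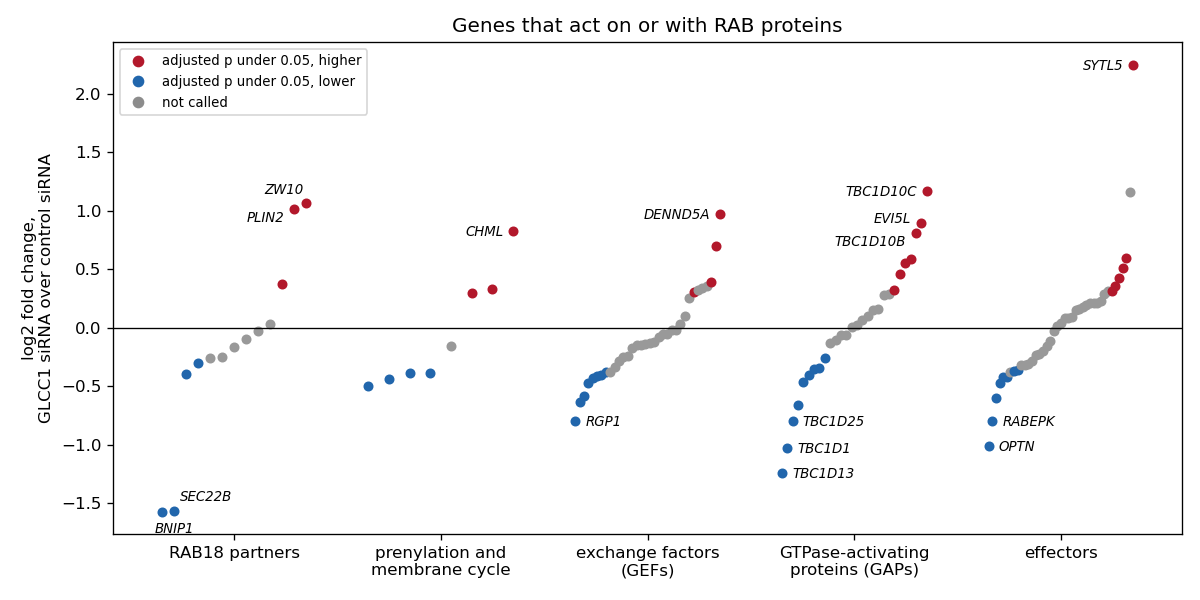
Log2 fold change (GLCC1 siRNA over control siRNA) of each tested gene in the lists of RAB18 partners, membrane cycle, GEFs, GAPs and effectors, ordered within each list and coloured by the call. Called genes run from -1.57 for BNIP1 to 2.25 for SYTL5, with both directions in every list.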

How the data were processed

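RNA of 6 libraries, 3 titled control siRNA and 3 titled GLCC1 siRNA, was sequenced by the authors as read pairs. The authors deposited raw counts per gene symbol, without normalization. The submitters' processing notes name TopHat2 2.0.11 and HTSeq with hg19, and the methods name union mode, which leaves out reads that touch more than 1 gene. Such ambiguous reads made up 8.19% to 8.89% of a library and reads on no gene 11.2% to 14.2%. These tallies were kept out of library sizes. Depth was 11948790 to 19042516 read pairs on genes.

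As in the methods of the study, a gene was kept when its counts reached a sum of 5 in at least 1 of the groups. The rest were compared in edgeR 4.0.16 (R 4.3.3) with TMM factors (0.950 to 1.05) and the robust quasi-likelihood test, with Benjamini-Hochberg adjustment over all 23074 genes. Shares and sums were compared with the exact permutation test (20 arrangements of the libraries). The fit was tested on simulated data of this design with 21605 genes, where it recovered 86 of 100 genes changed 2-fold and 72 of 100 changed 1.5-fold, and 4 of 162 calls were unchanged genes. In the data 31.6% of the genes tested were called, and how often the fit errs at such a share was not tested. Nor was it tested with a library that departs from its group as GLCC1 siRNA replicate 2 did. Positions, GC content and 3′ UTRs came from the canonical transcripts of GENCODE on hg19, which all 61 RAB genes matched. Figures used Python 3.11.15 with matplotlib 3.10.9.

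The RAB genes and the lists were chosen with earlier results of these data known. Named genes were RAB18, called RAB genes averaging 1 CPM or more, members of subfamilies whose shares did not overlap, all RAB18 partners, and at most 6 called genes of each other list by size of change. Alternatives were DESeq2 1.42.0, its size factors in edgeR, library totals, filters of 1 count in any library and of 10 counts in every library, an adjusted p under 0.01, a replicate block, each library left out, and shares per transcript length. A GC curve for each library was added after seeing the data. RAB genes not called were also named as contrasts to a paralogue, for their abundance, for their known place in epithelia or as examples of GC content, and were chosen after their values were seen.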

Additional observations from a re-analysis of the deposited data

How the results depend on the processing

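RAB18 stayed lower and called in all alternatives (log2 fold change -0.90 to -0.66, and -0.90 to -0.72 with each library left out). With each library left out, 8 to 22 RAB genes were called lower and 4 to 7 higher, 19 to 40 regulators and effectors lower and 15 to 34 higher, and 8 to 12 paralogue shares did not overlap, a count that fewer libraries cannot lower. At an adjusted p under 0.01, 10 RAB genes were lower and 4 higher. Regulators and effectors were 35 higher and 18 lower with library totals, and 36 higher with the GC curve. With all 6 libraries kept, some log2 fold changes shrank by more than 1.5 times. With library totals these were those of RAB10 (-0.14), RAB15 (-0.19), RAB40B (-0.22), RAB40C (-0.24) and ZFYVE1 (-0.18). With the GC curve they were those of RAB1B (-0.28), RAB15 (-0.19), RAB40C (-0.17), RABAC1 (-0.32), RABGGTA (-0.28) and DENND1C (-0.31). Without GLCC1 siRNA replicate 2, those of RAB12 (0.27) and RAB27B (0.37) shrank by that much, and so did that of RABAC1. No called RAB gene changed direction in any alternative. Among genes not called, RAB3GAP1 turned to 0.024 with library totals, and RAB3GAP2 to 0.094 there and 0.011 with 10 counts in every library. With each library left out RAB3GAP2 ran from -0.123 to 0.031, being above 0 without GLCC1 siRNA replicate 1 or 3, and USE1 from -0.032 without control replicate 1 to 0.145. The causes were not tested.

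The replicate numbers did not pair the libraries. Over 14875 genes, deviations from the group means correlated at -0.25 to -0.0026 between libraries of the same number and at a mean of 0.06 between others. With the replicate block RAB18 had -0.79, 14 RAB genes were called lower and 6 higher, the partners were 3 and 3, and the regulators and effectors were 28 lower. Calls lost with the block were those of RAB10 (adjusted p = 0.0518), RAB15 (0.055), RAB9A (0.0729), RAB40B (0.0589) and ZFYVE1 (0.0882). Few counts limit RAB genes under 1 CPM, where the standard error reached 1.55.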

Other observations

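Of genes with RAB-like names outside the naming rule, some were called and others were not. Of all genes averaging 1 CPM or more, 45.1% were called. RABL6 was at 184, 146 and 183 CPM with GLCC1 siRNA and at 108, 115 and 109 CPM in the controls (log2 fold change 0.63, SE 0.10, edgeR adjusted p = 0.000245). RABL5, a gene of transport within cilia, was at 17.6, 14.1 and 19.6 CPM against 29.9, 30.5 and 31.4 CPM (log2 fold change -0.83, SE 0.12, adjusted p = 0.000144). The near-identical copies RABL2A and RABL2B, between which counting may split reads, were both lower (log2 fold changes -0.68 and -0.54, adjusted p = 0.00492 and 0.00262). In these 4 genes the groups did not overlap, as in 24.1% of all genes tested in the lower direction and 22.2% in the higher. RABL3 (log2 fold change -0.10, adjusted p = 0.511) and RAB7L1, the symbol of RAB29 in the files (log2 fold change -0.03, adjusted p = 0.833), were not called. Neither were RAB40AL, RAB43P1, RAB11B-AS1 and RAB30-AS1 (edgeR adjusted p = 0.418, 0.604, 0.85 and 0.128).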
